A study of Mus musculus with 4 samples.

Results

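The genes for the 4 ID proteins, Id1, Id2, Id3 and Id4, and 5 genes of TGF-beta feedback, Smad6, Smad7, Skil, Tgif1 and Tgfb1, were followed in IMS32 cells, immortalized Schwann cells of the mouse. They were taken by gene name, with earlier results of these data known, and every probe of the array that carries one of these gene names was taken. This gave 10 of the 39429 probes for mouse transcripts and 9 of 31093 gene names, with 2 probes for Skil and 1 for each of the other 8 genes. The cells had spent 1 h in DMEM with 5% FBS in each of 4 media. These held 5 mM glucose with 1 mM pyruvate, termed [Glc 5 mM/Pyr (+)], 5 mM glucose without pyruvate, [Glc 5 mM/Pyr (−)], 15 mM glucose with 1 mM pyruvate, [Glc 15 mM/Pyr (+)], and 15 mM glucose without pyruvate, [Glc 15 mM/Pyr (−)]. Below, 5 mM is called normal and 15 mM high glucose, and lists of 4 values follow this order of media. RNA of each medium was labelled with 1 dye and hybridized to 1 array, so each group has 1 sample, no spread between cultures is known and no test between media was made. The cells are 1 immortalized line, which limits them as a model of Schwann cells in a nerve. All media held serum, and the growth factors that serum brings are shared by the 4 groups.

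ID proteins carry a helix-loop-helix domain without the basic region that binds DNA. They pair with E proteins and keep them from binding DNA with tissue-specific partners, which delays differentiation in many lineages. The Id genes are classical early targets of BMP signalling through the receptor-activated Smads, and some of them also answer to serum. Signals of the TGF-beta family induce their own inhibitors. Smad6 and Smad7 are inhibitory Smads that occupy or help to degrade the receptors, and Skil, which encodes SnoN, and Tgif1 are co-repressors that act on Smad complexes. Tgfb1 encodes the ligand TGF-beta 1. In Schwann cells, TGF-beta is known for its part in proliferation, survival and the response to nerve injury.

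The DNA ahead of Id2, Id3 and Id4 is shown because each stood higher in [Glc 15 mM/Pyr (−)] than in the other media. With the scaling used for the log2 levels below, the excess was more than the measurement error. Scaling to spike-in controls left Id3 and Id4 within the error of [Glc 5 mM/Pyr (+)], as given below. Of the 9 genes, 6 had an entry in the RefSeq promoter table of GRCm38.p6. Each sequence is the 250 bases before the annotated start site, read 5′ to 3′ on the gene's strand. Capitals mark the letters of GGCGCC, a GC-rich word bound by Smads of the BMP branch, TGACG, the core of a cAMP response element, and CCAAT, the core of the CCAAT box, on either strand.
Id2 (chr12:25096093-25096342, minus strand): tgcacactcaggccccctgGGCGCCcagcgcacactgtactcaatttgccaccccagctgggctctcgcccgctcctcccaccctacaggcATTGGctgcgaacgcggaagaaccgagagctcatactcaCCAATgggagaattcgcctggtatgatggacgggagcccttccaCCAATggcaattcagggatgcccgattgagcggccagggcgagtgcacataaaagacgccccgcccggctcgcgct
Id3 (chr4:136143572-136143821, plus strand): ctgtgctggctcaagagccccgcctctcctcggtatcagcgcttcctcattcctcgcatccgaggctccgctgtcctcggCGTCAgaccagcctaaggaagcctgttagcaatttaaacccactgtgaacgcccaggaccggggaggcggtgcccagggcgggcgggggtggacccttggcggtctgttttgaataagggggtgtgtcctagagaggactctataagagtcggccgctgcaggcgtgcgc
Id4 (chr13:48260866-48261115, plus strand): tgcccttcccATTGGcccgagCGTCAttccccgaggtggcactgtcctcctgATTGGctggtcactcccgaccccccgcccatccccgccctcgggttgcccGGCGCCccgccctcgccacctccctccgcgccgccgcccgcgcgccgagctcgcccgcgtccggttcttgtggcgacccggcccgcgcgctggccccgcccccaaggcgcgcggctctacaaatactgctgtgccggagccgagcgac

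GGCGCC lay 231 bases before the start site in Id2 and 148 bases before it in Id4, and was not found in the window of Id3. It occurred in 9.59% of the 32851 promoter windows of the table. TGACG was found once in Id3, 170 bases before the start, and once in Id4, 229 bases before it, against 17.8% of all windows. CCAAT was found 3 times in Id2, at 159, 120 and 76 bases before the start, and 2 times in Id4, at 240 and 198 bases, against 33.8% of all windows. The Smad box GTCTG was found 2 times in Id3, at 167 bases, where it shares letters with TGACG, and at 68 bases before the start, against 42.2% of all windows. The full cAMP response element TGACGTCA, which contains TGACG, the paired Smad box GTCTAGAC and the TATA word TATAAA were not found in these windows, and occurred in 1.55%, 0.167% and 12.4% of all windows. The share of G and C was 62.8% in Id2 and Id3 and 75.6% in Id4, with a median of 52.4% over all windows. CpG pairs numbered 18, 18 and 35, against a median of 6. None of these words was found in the windows of Smad6 and Tgfb1. Of the 5 windows of Tgif1, 3 held GTCTG and 1 held CCAAT, and none held another of these words. These matches describe letters only, and binding was not measured.

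The array measured each gene with designed probes of 60 bases. The Id3 probe is shown because the files give it no position, the Skil probe because it differs in sign from the other Skil probe in some comparisons, and the Tgfb1 probe because its 10 spots per array give the smallest SE reported below.
Id3 probe A_51_P380178: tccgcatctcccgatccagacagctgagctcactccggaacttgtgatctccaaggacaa
Skil probe A_52_P597461: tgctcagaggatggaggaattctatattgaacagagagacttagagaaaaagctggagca
Tgfb1 probe A_51_P390715: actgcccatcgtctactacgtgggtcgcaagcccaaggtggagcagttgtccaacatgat

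In the coordinates of the files (mm9), the probe for Id1 lies on chromosome 2 from 152563083 to 152563142, that for Id2 on chromosome 12 from 25778904 to 25778963 and that for Id4 on chromosome 13 from 48358668 to 48358727. The Id3 probe is given as unmapped. The Smad6 probe lies on chromosome 9 from 63800980 to 63801039 and the Tgif1 probe on chromosome 17 from 71193629 to 71193688. The Skil probes lie on chromosome 3, A_51_P118132 from 31021203 to 31021262 and A_52_P597461 from 31016390 to 31016449, and the Tgfb1 probe on chromosome 7 from 26489877 to 26489936. Which exon or UTR each probe covers was not analysed here.

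Between 28470 and 30344 probes were well above background on each array, no spot was saturated, and all 10 probes of the 9 genes were well above background on all 4 arrays. Values are the background-corrected intensity of a spot, a brightness without unit, and log2 levels are relative to the 75th percentile of each array, which lay between 1597 and 1788. Log2 levels are compared between media for 1 probe and are not ranked between the probes of the 9 genes. Bright and dim refer to intensities, and the marker sums below add intensities over probes, both without this scaling. Feature Extraction, the scanner software, gave each intensity an error near 10% of its value, which makes 0.20 on the log2 scale for a difference between 2 arrays. The Schwann cell markers Sox10, S100b and Ngfr were bright, while Erbb3 and Gfap were dim, with intensities between 15.6 and 76.4. All 14 Schwann cell markers were well above background on 4 arrays, and their summed intensity was 71358, 67246, 63965 and 58905 in the 4 media. Of 6 macrophage markers, 6 were above background, and their sums ranged from 10854 to 15870. Ptprc, which defines leukocytes, was dim at 23.4 to 29.6. Cd68, a lysosomal protein of macrophages, had intensities of 1200, 1258, 969 and 1817 in the 4 media, highest in [Glc 15 mM/Pyr (−)], as Id2, Id3 and Id4 were, while Itgam, an integrin of myeloid cells, had 13155, 11908, 8530 and 7997, lowest there. Of 6 fibroblast markers, 5 were above background on 4 arrays, with sums of 2819 to 3043. Of 4 endothelial markers, 2 were, with sums of 4242 to 5715, and Cdh5, which defines this type, was above background on 0 arrays. Kdr, another of these markers, made up most of the sums, with 5496, 5358, 4089 and 5020 in the 4 media. The part of other cell types in the differences below was not tested.

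The comparisons asked how the genes differed without pyruvate at each glucose concentration, and how they differed with glucose. Id2, Id4 and Id3 were higher in [Glc 15 mM/Pyr (−)] than in the other media, by up to 0.73 on the log2 scale for Id2. Id1 was higher at high glucose with and without pyruvate. Scaling to the spike-in controls, however, turned the first Id1 difference to -0.11 and left the second at 0.09, both within the error of 0.20. Skil was lowest in [Glc 15 mM/Pyr (−)] by its repeated probe, and Smad7 was lower without pyruvate at both glucose concentrations. Quantile normalization gave Tgif1 -0.21 with glucose where pyruvate was absent, just past the error of 0.20. The differences of Smad6, Tgif1 and Tgfb1 otherwise stayed within the measurement error, except with the spike-in controls. These gave -0.30, -0.38 and -0.52 with glucose where pyruvate was present, beside -0.37 for the median of all probes. Without pyruvate at normal glucose they gave -0.28, -0.28 and -0.24, beside -0.21. With glucose where pyruvate was absent they gave -0.13, -0.29 and -0.32, beside -0.17. Without pyruvate at high glucose all stayed within the error. In RNA from a whole culture, less RNA per cell and fewer cells of a kind cannot be told apart. No probe of the 9 genes differed by 2-fold in any of the 4 comparisons. Without pyruvate at normal glucose this was 0 of 10 probes, against 1.17% of the 29088 probes measured on both arrays, and 0 of 10 at 1.5-fold against 3.20%. Without pyruvate at high glucose it was 0 of 10 against 2.10% of 27783 probes, and 1 of 10 at 1.5-fold, Id2, against 6.54%. For high against normal glucose it was 0 of 10 with pyruvate, against 0.968% of 28215 probes at 2-fold and 0 of 10 against 3.12% at 1.5-fold. Without pyruvate the glucose comparison gave 0 of 10 against 2.40% of 28208 probes at 2-fold, and 1 of 10 at 1.5-fold, again Id2, against 7.28%. The median log2 difference over the 10 probes was -0.055, -0.039, 0.016 and 0.022 in these comparisons, and that of all probes was -0.018, 0.028, -0.017 and 0.032.

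**Figure D1:**
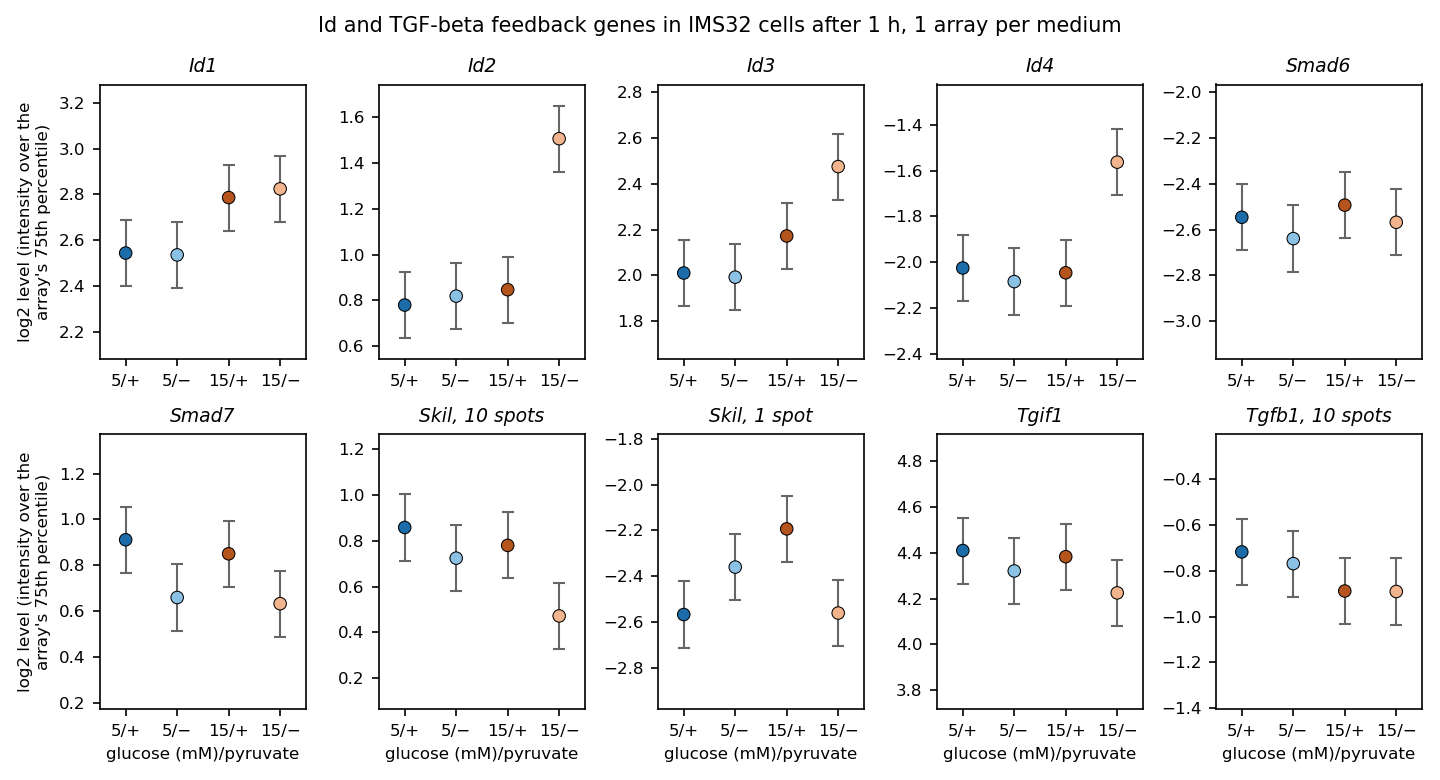
Log2 level of each probe of the Id and TGF-beta feedback genes, relative to the 75th percentile of its array (vertical axis, 1.2 log2 units in every panel), in the 4 media given as glucose in mM and pyruvate present (+) or absent (−). Points are 1 array each and bars are the Feature Extraction error of that array. Id2, Id3 and Id4 were highest in high glucose without pyruvate, and the 10-spot probe of Skil was lowest there.

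Id2 had the widest range of the 9 genes. Its intensity was 3069 with pyruvate and 3069 without at normal glucose, and 2873 with and 4635 without at high glucose. The first 3 arrays lay together, with log2 levels of 0.78, 0.82 and 0.85, and the fourth stood apart at 1.51. At high glucose, Id2 was 1.58-fold higher without pyruvate than with it, a log2 difference of 0.66 with an error of 0.20, while at normal glucose the difference was 0.04. Higher glucose gave 0.07 with pyruvate and 0.69, or 1.61-fold, without it. Probes well above background on every array were split by signal into 3 groups of equal size, dim, middle and bright, and Id2 belongs to the bright group of 9196 probes. Of these, 0.272% were as high as Id2 without pyruvate at high glucose, and 0.196% with glucose in the absence of pyruvate. The 2 differences share the [Glc 15 mM/Pyr (−)] array and are not independent of each other.

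Id4 also stood apart in 1 medium, the same as for Id2. Its intensity was 439 with pyruvate and 410 without at normal glucose, and 387 with and 552 without at high glucose. The log2 levels of the first 3 media, -2.03, -2.08 and -2.05, differed by less than the error, and the fourth, -1.56, was above them. Without pyruvate, Id4 differed by -0.06 at normal glucose and by 0.48, or 1.40-fold, at high glucose. Higher glucose gave -0.02 with pyruvate and 0.52 without. Of the 9197 probes in the middle group, 2.37% were as high as Id4 without pyruvate at high glucose.

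Id3 had intensities of 7201 and 6920 at normal glucose, with and without pyruvate in turn, and 7198 with and 9071 without at high glucose. The log2 levels were 2.01, 1.99, 2.17 and 2.47. The fourth array was again the highest, and the neighbours below it lay within the error of each other. Without pyruvate, Id3 differed by -0.02 at normal glucose and by 0.30, or 1.23-fold, at high glucose, where 2.25% of the bright group were as high. Higher glucose gave 0.16 with pyruvate, within the error, and 0.48, or 1.40-fold, without it.

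Id1 showed another order. Its intensity was 10428 with pyruvate and 10091 without at normal glucose, and 11021 with and 11559 without at high glucose, with log2 levels of 2.54, 2.54, 2.79 and 2.82. The arrays grouped by glucose and not by pyruvate. Without pyruvate Id1 differed by -0.01 at normal glucose and 0.04 at high glucose, both below the error of 0.20. Higher glucose gave 0.24 with pyruvate and 0.29 without, and 2.62% and 5.06% of the bright group were as high. Both values are above the error of 0.20, but with the spike-in controls they became -0.11 and 0.09, within the error, where the median of all probes was -0.37 and -0.17.

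The pyruvate difference at high glucose minus that at normal glucose was 0.62 for Id2, 0.54 for Id4, 0.32 for Id3 and 0.046 for Id1, with an error of 0.29 from Feature Extraction. It was 0.02 for Smad6, 0.03 for Smad7, 0.05 for Tgfb1, -0.07 for Tgif1, and -0.17 and -0.57 for the 2 probes of Skil. For Id2, 0.903% of the bright group lay as far from 0, and for Id4, 6.23% of the middle group did.

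**Figure D2:**
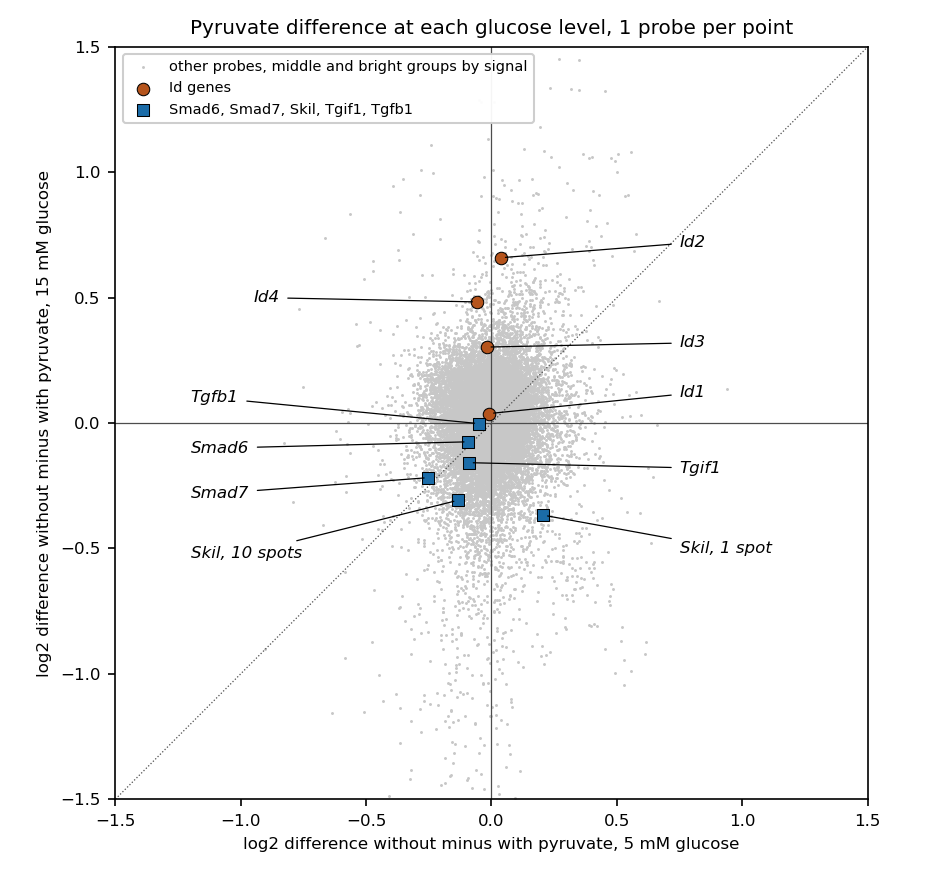
Log2 difference without minus with pyruvate at normal glucose (horizontal axis) and at high glucose (vertical axis), 1 point per probe. Grey points are the 18393 probes of the middle and bright groups of signal, of which 21 lie beyond the axes at 1.5, the dotted line marks equal differences, and Id2, Id4 and Id3 lie near 0 on the horizontal axis and at 0.66, 0.48 and 0.30 on the vertical axis.

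The inhibitory Smads differed little. Smad7, which competes with receptor-activated Smads and brings ubiquitin ligases to the TGF-beta receptor, had intensities of 3362 and 2747 at normal glucose, with and without pyruvate in turn, and 2879 with and 2528 without at high glucose. Both arrays without pyruvate lay below both arrays with it, with log2 levels of 0.66 and 0.63 against 0.91 and 0.85. The difference without pyruvate was -0.25 at normal glucose, where 0.739% of the bright group were as low, and -0.22 at high glucose, where 6.71% were. These sizes exceed the error of 0.20 by little. Glucose gave -0.06 with pyruvate and -0.03 without. In mm9 the Smad7 probe covers chromosome 18 from 75555371 to 75555430. Smad6, which acts mainly on BMP signals, had intensities of 306, 279, 284 and 275 in the 4 media. Its 4 differences ranged from -0.09 to 0.07, all within the error. Both arrays without pyruvate lay below both with it after scaling, with log2 levels of -2.64 and -2.57 against -2.55 and -2.49.

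Skil, whose product SnoN represses Smad targets, was measured by 2 probes, 1 of them printed 10 times on each array. The median intensity of the 10 spots of A_51_P118132 was 3203 (2973 to 3621) with pyruvate and 2868 (2670 to 3161) without at normal glucose, and 2741 (2443 to 3029) with and 2249 (2060 to 2538) without at high glucose. The [Glc 15 mM/Pyr (−)] array was the lowest. Without pyruvate, the log2 difference was -0.13 ± 0.035 (SE over 10 spots per array) at normal glucose and -0.31 ± 0.041 at high glucose. For high against normal glucose it was -0.08 ± 0.038 with pyruvate and -0.25 ± 0.039 without. The ranges of the spots overlapped in all 4 comparisons. This SE covers the error within an array and says nothing of the spread between cultures.

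The second probe of Skil, A_52_P597461, has 1 spot on each array and gave another pattern. Its intensity was 302 with pyruvate and 339 without at normal glucose, and 349 with and 277 without at high glucose. The probes had opposite signs without pyruvate at normal glucose, where the second gave 0.21, and with glucose in the presence of pyruvate, where it gave 0.37. They shared a negative sign without pyruvate at high glucose, where the second gave -0.37, and with glucose in the absence of pyruvate, where it gave -0.20. Both probes were thus lower in [Glc 15 mM/Pyr (−)] than in either of its neighbours in the design, and they differed in sign in the comparisons that leave this array out.

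Tgif1, a homeodomain co-repressor, was bright, with intensities of 38014 with pyruvate and 34775 without at normal glucose, and 33339 with and 30520 without at high glucose. After scaling, both arrays without pyruvate lay below both arrays with it. The differences were -0.09 without pyruvate at normal glucose and -0.16 at high glucose, and -0.03 and -0.10 with glucose, all within the error of 0.20.

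Tgfb1, the ligand, was printed 10 times on each array. The median intensity of its spots was 1082 (1047 to 1134) with pyruvate and 1024 (975 to 1062) without at normal glucose, and 860 (836 to 909) with and 876 (851 to 919) without at high glucose. Both arrays of high glucose lay below both of normal glucose. Higher glucose gave -0.17 ± 0.015 (SE over 10 spots per array) with pyruvate and -0.12 ± 0.016 without. The scaled spots did not overlap with pyruvate, with log2 levels of -0.77 to -0.66 at normal and -0.93 to -0.81 at high glucose, and overlapped without it. Without pyruvate Tgfb1 differed by -0.05 ± 0.015 at normal glucose and by 0.00 ± 0.016 at high glucose. All 4 differences were smaller than the error of 0.20 that Feature Extraction gives, and 17.2% of the middle group were as low with glucose in the presence of pyruvate.

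**Figure D3:**
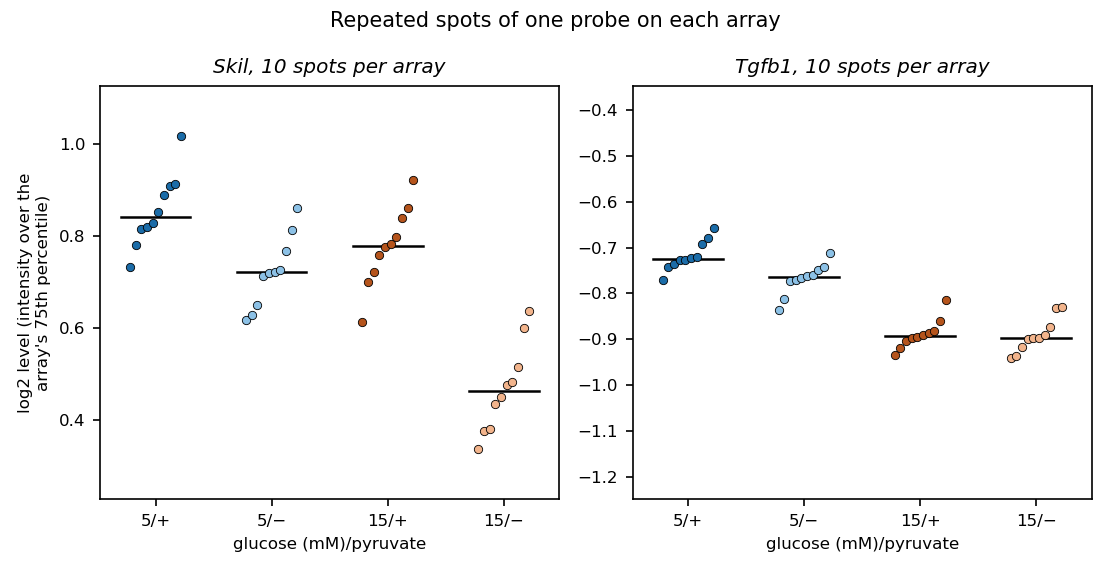
Log2 level relative to the 75th percentile of the array (vertical axis) of the 10 spots of the Skil probe A_51_P118132 and of the Tgfb1 probe in the 4 media, given as glucose in mM and pyruvate. Points are spots in order of level, lines are medians. Skil was lowest in high glucose without pyruvate, and Tgfb1 was lower at high than at normal glucose with and without pyruvate.

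The remaining genes of the pathway were listed by role, each gene by its brightest probe. Of 10 ligand genes, 6 were measured. Their median difference without pyruvate was 0.03 at normal glucose and -0.08 at high glucose, and 0 passed 2-fold. Bmp4, which was dim at 18.2 to 30.6, passed 1.5-fold. It gave 0.69 without pyruvate at normal glucose and -0.66 with glucose in the absence of pyruvate. Inhba, the beta A subunit of activin and inhibin, was the farthest from 0 of the ligands without pyruvate at high glucose, with -0.31, and gave -0.26 at normal glucose. All 12 receptors and co-receptors were measured, and at high glucose all 12 were below 0 without pyruvate, with a median of -0.11 beside 0.028 for all probes. Apart from Acvr1b, Bmpr1b, Acvr2b and Bmpr2 they lay within the error of 0.20 by the brightest probe. The fainter probe of Tgfbr1 gave 0.21, and that of Acvr2a gave -0.32, against 0.35 at normal glucose. By the brightest probe, 8 of the 12 were below 0 at normal glucose, with a median of -0.05. The 2 receptor genes past 2-fold were dim. Acvr1b, the activin receptor ALK4, had intensities of 50.8, 40.3, 82.0 and 34.0 in the 4 media, a difference of -1.30 without pyruvate at high glucose. Bmpr1b, a type I BMP receptor, had 25.4, 68.4, 78.4 and 55.1, a difference of 1.47 without pyruvate at normal glucose and of 1.79 with glucose in the presence of pyruvate. Both values come from single dim spots, and rest on the highest of the 4 arrays for Acvr1b, [Glc 15 mM/Pyr (+)], and on the lowest for Bmpr1b, [Glc 5 mM/Pyr (+)]. Normexp background correction took both below 2-fold, Acvr1b to -0.69 and Bmpr1b to 0.61 and 0.85.

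Of 6 Smads that carry the signal, 5 were measured and 0 passed 1.5-fold in any comparison. By the brightest probe, Smad5 was the farthest from 0 without pyruvate at high glucose, with -0.22, and its fainter probe gave 0.06. The fainter probe of Smad3 gave 0.46 in this comparison, against -0.11 by its brightest. Among 14 other inhibitors, 12 were measured and 0 passed 1.5-fold by the brightest probe. A fainter probe of Tgif2 gave -0.67 with glucose in the absence of pyruvate. Pmepa1, a membrane protein that retains Smads and is itself induced by TGF-beta, differed by -0.16 at normal glucose and -0.45 at high glucose without pyruvate, and its second probe gave -0.15 and -0.42. Of 12 target genes, 11 were measured, and 0 passed 2-fold. Ctgf, a matrix protein gene induced by TGF-beta, was lower without pyruvate at both glucose concentrations, with differences of -0.90 and -0.90 from intensities of 858 and 446 at normal glucose and 688 and 376 at high glucose. Msx2, a homeobox gene that BMP signals induce and chosen after its values were seen, differed by -0.28 at normal glucose and 0.83 at high glucose, from intensities of 164, 131, 104 and 189 in the 4 media. Msx1, another homeobox gene of this list, went the other way, with 0.01 at normal glucose and -0.38 at high glucose. With glucose in the absence of pyruvate, Msx2 gave 0.62 and Msx1 gave -0.56. Over the measured targets, 8 were above 0 and 3 below at high glucose, with a median of 0.23, and 5 above and 6 below at normal glucose, with a median of -0.12. The E proteins, which ID proteins bind, showed no member past 1.5-fold by the brightest probe. By that probe the largest difference without pyruvate at high glucose was that of Tcf3, 0.15, and its fainter probe gave -0.10. The fainter probe of Tcf4 gave -0.35 in this comparison. With glucose in the absence of pyruvate it gave -0.62, past 1.5-fold.

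**Figure D4:**
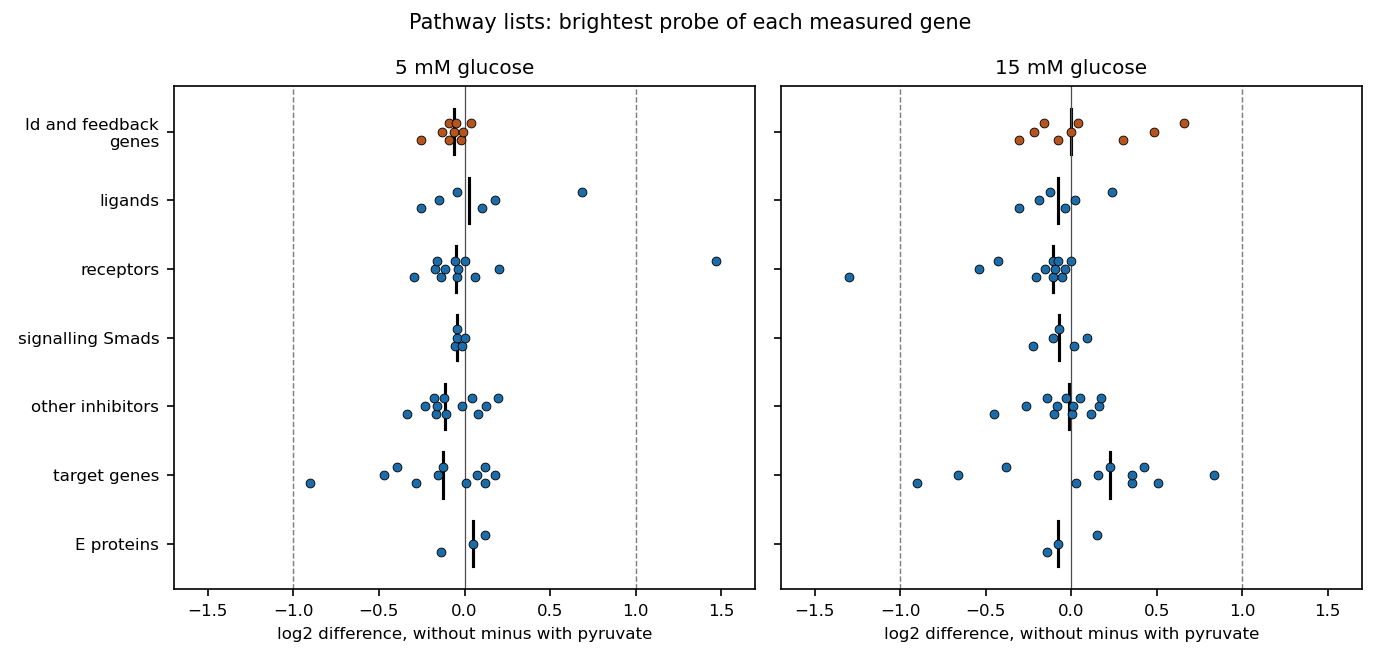
Log2 difference without minus with pyruvate (horizontal axis) of the Id and feedback genes and of the 6 pathway lists (vertical axis), at normal glucose on the left and at high glucose on the right. Each point is the brightest probe of 1 measured gene, short lines are medians and dashed lines mark 2-fold. At high glucose all 12 receptors lie below 0, Acvr1b lies past 2-fold, and Id2, Id4 and Id3 lie at 0.66, 0.48 and 0.30.

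The genes whose levels over the 4 media were nearest to those of Id2, Id4 and Id3 were sought among 21707 genes, by the distance between log2 levels after each gene's mean was taken off. For Id2 these were Gm10544, Dnajb1, which encodes a co-chaperone of the heat shock response, and Hgfac, at distances of 0.020, 0.023 and 0.032. Dnajb1 had intensities of 24213, 23729, 22599 and 36166 in the 4 media, highest in [Glc 15 mM/Pyr (−)] as Id2 was, while Gm10544 and Hgfac were dim. For Id4 the nearest were 1700080G18Rik, at 0.016, and 2 features that the files name by transcript number. For Id3 they were Rgs3, Serf1 and Wnt9a, at 0.031, 0.032 and 0.032. Rgs3 encodes a regulator of G protein signalling and Wnt9a a Wnt ligand. The measure rests on 4 points per gene, and these names describe likeness of level and no more.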

How the data were processed

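RNA from IMS32 cells after 1 h in each of 4 media was hybridized by the authors to 1-colour Agilent arrays, 1 array per medium. The deposited scanner files, made with Agilent Feature Extraction 11.5.1.1 per the file headers, hold the background-corrected intensity of each spot, without scaling between arrays. The other deposited table gives the ratio of that intensity to 1 constant per array. The study names GeneSpring GX, without settings.

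Here spots that are controls or carry an outlier mark were dropped, repeated spots were averaged, and the log2 of the mean was taken minus the array's 75th percentile over probes for mouse transcripts. A probe counted as measured in a comparison where it was well above background on both arrays. Differences were called at 2-fold, with 1.5-fold as an alternative. With 1 array per medium no test was made, and the number of arrays limits the precision. The fold count was checked on simulated data. R 4.3.3 with limma 3.58.1 gave the other normalizations, and Python 3.11.15 with numpy 2.4.6, pandas 2.3.3 and matplotlib 3.10.9 the rest. Normexp used an offset of 50.

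The members, pathway lists and markers were chosen with earlier results of these data known. Named genes are all members, listed genes past 2-fold in any comparison, the gene of each list farthest from 0 without pyruvate at high glucose (15 mM), and the 3 nearest genes of the 3 members with the widest range. Msx1, Msx2, Smad3, Acvr2b, Bmpr2, Tgfbr1, Acvr2a, Tcf4, Tgif2 and Bmp4 are named outside this rule, after their values were seen. Gene names come from the array's own annotation, and the promoters are from RefSeq. Counts, medians and sums include some listed genes that are not reported here by name.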

Additional observations from a re-analysis of the deposited data

Results flagged for a closer look

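For 3 of the ID genes and 1 probe of Skil, the difference without pyruvate had opposite signs at the 2 glucose concentrations. With 1 array per medium the difference between them was not tested. Taken as the value at 15 mM minus that at 5 mM glucose, it was 0.046 for Id1, 0.32 for Id3, 0.54 for Id4 and -0.57 for the Skil probe A_52_P597461, beside an error of 0.29 from Feature Extraction. For Id1 both values, -0.01 and 0.04, lay within the error of 0.20 and the sign carries no weight. Id3 gave -0.02 and 0.30, and Id4 gave -0.06 and 0.48, so the value at 5 mM glucose was near 0 in each. The Skil probe gave 0.21 and -0.37, while the other Skil probe, printed 10 times on each array, was below 0 at both glucose concentrations.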

How the results depend on the processing

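No paired analysis was possible because each group has 1 sample, and for the same reason no replicate could be left out. The 10 alternatives to the scaling, background correction, averaging and filter each gave 0 member probes past 2-fold in every comparison, and the 1.5-fold threshold gave 1, Id2, without pyruvate at 15 mM glucose and 1, also Id2, with glucose in the absence of pyruvate. Scaling to the 8 of 10 spike-in controls well above background moved the median over member probes to -0.24 without pyruvate at 5 mM glucose, -0.33 with glucose where pyruvate was present, and -0.18 with glucose where it was absent. It also moved the median of all probes in these comparisons, to -0.21, -0.37 and -0.17. The cause was not tested. Of 40 differences of single member probes, 9 changed sign under at least 1 alternative, the largest of them Id1 with glucose in the presence of pyruvate, 0.24, which became -0.11 with the spike-in controls. Relative to the median of all probes under each setting, Id1 stayed between 0.15 and 0.26 there. Without pyruvate, the glucose differences of Id1, Id3 and Id4 went from 0.29, 0.48 and 0.52 to 0.09, 0.29 and 0.32 with the spike-in controls. Id2 without pyruvate at 15 mM glucose lay between 0.62 and 0.66, Id4 between 0.38 and 0.49, Id3 between 0.27 and 0.32, and Skil between -0.34 and -0.30 by the 10-spot probe, over the alternatives. Over all probes, normexp left 10, 100, 8 and 113 probes past 2-fold in the 4 comparisons, against 340, 583, 273 and 676, and no filter on dim probes left 1652, 2546, 1624 and 2757. With glucose in the presence of pyruvate, 126 of the 273 calls were higher, against 171 of 279 with quantile normalization, 157 of 266 with cyclic loess and 67 of 495 with the spike-in controls. Single spots of moderate signal limit the values of Id4, Smad6 and the second Skil probe.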
